A study of Mus musculus with 27 samples.

Results

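The CDK inhibitors and the D-type cyclins are 10 genes that act against each other at the start of the cell cycle. They were taken by symbol from a table of 30153 genes, with no threshold on their values but with earlier results of these data known. The 7 CDK inhibitors were Cdkn1a, Cdkn1b, Cdkn1c, Cdkn2a, Cdkn2b, Cdkn2c and Cdkn2d, and the 3 D-type cyclins Ccnd1, Ccnd2 and Ccnd3. RNA-seq was performed on Prx1 cells from muscle, periosteum and bone marrow of the hindlimb of Prx1-CreER/Ai14/Rag1 mice of both sexes, aged 8 to 12 weeks, which had received 2 doses of tamoxifen and were harvested 3 days after the last. In these mice CreER is driven by the Prx1 promoter and marks Prx1 cells and their progeny with tdTomato, so a marked cell need not express Prx1 at harvest, and all groups carried the Rag1 allele. Cells without CD45 were sorted into P1, which carries CD200 but no CD105, P2, which carries neither, and P3, which carries CD105 with or without CD200. This gave 9 groups with 3 libraries each. The 3 tissues were harvested from the hindlimbs of these mice, so groups may share animals. Which animal gave which library is not stated, so the p-values measure the spread between these libraries and treat them as independent. There was no untreated or other control group, and all groups shared the alleles and the tamoxifen.

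A cell that leaves rest first makes a D-type cyclin, which binds CDK4 or CDK6 and starts the phosphorylation of the retinoblastoma proteins, and this frees the E2F factors to switch on genes of DNA replication. The INK4 inhibitors (Cdkn2a, Cdkn2b, Cdkn2c and Cdkn2d) bind CDK4 and CDK6 and keep D-type cyclins away from them. The Cip/Kip inhibitors (Cdkn1a, Cdkn1b and Cdkn1c) bind complexes of cyclins with CDKs, above all those of CDK2. In adult tissue stem cells Cdkn1b and Cdkn1c are known for their part in quiescence, and in maturing red cells Ccnd3 and Cdkn2c are known for setting the number of the last divisions.

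In the group means Eng was highest in P3 and Cd200 higher in P1 than in P2, as gated, but P2 from periosteum and bone marrow also carried erythroid RNA. Eng, which encodes CD105, was between 1195 and 5765 normalized counts in the means of the P3 groups and at most 360 in those of P1 and P2. The summed level of 11 erythroid markers was 45.6% to 48.9% of the library in bone marrow P2 and 24.7% to 39.7% in periosteum P2. In bone marrow P3 it was 3.31% to 4.84%, in periosteum P3 1.52% to 2.20%, and in the other groups between 0.0257% and 2.97%. The summed level of 8 stromal markers, such as Col1a1 and Pdgfra, was 27.2% to 40.0% in bone marrow P1 and 0.0105% to 0.0456% in bone marrow P2, so that the markers of the labelled cell type were close to absent from the latter. Muscle P2 carried muscle fibre markers at 10.3% to 14.5%. Ptprc, which encodes CD45, had a mean of 610 ± 267 (SD, n = 3) in bone marrow P2 against 4.12 to 232 in the other groups. The libraries of periosteum P2 resembled each other least (pairwise r of log2 values 0.631 to 0.672). In sorted bulk samples, fewer cells of a type and less RNA per cell cannot be told apart.

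Promoters, the stretches before a start site where factors bind, were found in the RefSeq table (GRCm38.p6) for 7 of the 10 genes. The 4 shown here belong to genes whose levels set bone marrow P1 apart from bone marrow P2, and each gives the 250 bases before a start site, 5′ to 3′ on the strand of the gene, with matches of the motifs searched in capitals. The window of the first start site is chr17:29090729-29090978 (+) for Cdkn1a and chr4:109666757-109667006 (-) for Cdkn2c. For Cdkn2d it is chr9:21291210-21291459 (-) and for the second start site of Ccnd3 chr17:47593217-47593466 (+). Cdkn1a, Cdkn2c and Ccnd3 each have another listed start site, which is not shown.
Cdkn1a: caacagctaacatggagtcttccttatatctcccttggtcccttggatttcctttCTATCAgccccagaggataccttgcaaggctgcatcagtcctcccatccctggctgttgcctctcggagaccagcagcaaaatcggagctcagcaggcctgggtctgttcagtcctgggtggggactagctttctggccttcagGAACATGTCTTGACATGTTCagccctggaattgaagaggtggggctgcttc
Cdkn2c: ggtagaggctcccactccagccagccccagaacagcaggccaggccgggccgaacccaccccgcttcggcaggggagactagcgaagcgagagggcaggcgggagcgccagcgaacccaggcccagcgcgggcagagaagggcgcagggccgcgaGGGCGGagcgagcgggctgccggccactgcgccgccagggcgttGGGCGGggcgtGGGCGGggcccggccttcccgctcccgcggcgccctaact
Cdkn2d: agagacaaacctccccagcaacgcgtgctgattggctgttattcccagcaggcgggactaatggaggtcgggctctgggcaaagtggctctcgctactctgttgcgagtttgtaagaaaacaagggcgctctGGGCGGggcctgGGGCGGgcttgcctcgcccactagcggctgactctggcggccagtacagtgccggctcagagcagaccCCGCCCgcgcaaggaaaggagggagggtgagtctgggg
Ccnd3: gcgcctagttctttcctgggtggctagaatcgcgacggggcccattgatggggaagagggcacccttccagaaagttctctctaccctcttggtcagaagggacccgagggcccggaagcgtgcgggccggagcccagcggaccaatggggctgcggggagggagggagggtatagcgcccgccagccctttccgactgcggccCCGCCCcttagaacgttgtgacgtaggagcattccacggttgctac
The motifs searched on both strands were the GATA box (AGATAA and its variant AGATAG, as well as TGATAA and its variant TGATAG), the E2F site (TTTCCCGC, TTTCGCGC, TTTGCCGC or TTTGGCGC), the GC box (GGGCGG), the E-box (CACGTG) and the p53 element. In the Cdkn1a window the long run in capitals is the p53 element, which begins at position -51 from the start site and which 0.0579% of 32841 promoter windows of the same length hold with at most 1 mismatch outside its core. The short run is a GATA box, which 26.5% of all windows hold. The window of the second Cdkn1a start site, chr17:29093519-29093768 (+), holds 2 GC boxes and no GATA box or p53 element. The Cdkn2c and Cdkn2d windows hold 3 GC boxes each and the Ccnd3 window 1, where 32.7% of all windows hold at least 1. No GATA box or E2F site was found in the windows of Cdkn2c, Cdkn2d and Ccnd3. These matches describe letters and not binding.

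Cdkn1a (chr17:29090976-29100727, GRCm38), which encodes p21 and is switched on by p53 among others, was highest in bone marrow P1 and, within bone marrow, set P1 apart from both other subpopulations. Its normalized counts were 7734, 7032 and 6263 in bone marrow P1. They were 232, 268 and 108 in bone marrow P2. They were 1769, 338 and 451 in bone marrow P3. The 3 groups did not overlap, and the lowest P1 library lay above every P3 library. The log2 fold change of P1 was 5.20 ± 0.47 (SE) over P2 (limma, adjusted p = 1.28e-08) and 3.43 ± 0.47 over P3 (adjusted p = 2.61e-05). The P3 library with the highest Cdkn1a level also had the lowest stromal share of the P3 libraries (0.563%, against 0.797% and 1.65%) and the highest endothelial share (0.110%, against 0.0277% and 0.0619%), and their part in its level was not tested. P2 was lower than P3 by 1.77 ± 0.47 (adjusted p = 0.00975), and without that P3 library the difference was -1.04 (adjusted p = 0.0848).

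Outside bone marrow the subpopulations were much closer to each other in Cdkn1a. In muscle the libraries had 3462, 3708 and 2571 normalized counts in P1, 3239, 1791 and 1670.0 in P2, and 3514, 4014 and 2754 in P3. In periosteum they had 4016, 6833 and 4909 in P1, 3927, 1663 and 2058 in P2, and 4393, 4309 and 4734 in P3. The ranges of P1 and P3 overlapped in both tissues. The log2 fold change of P1 over the mean of P2 and P3 was 0.26 in muscle (95% interval -0.58 to 1.09) and 0.65 in periosteum (-0.18 to 1.49), and neither passed the test (adjusted p = 1.0 and 0.328). In bone marrow it was 4.32 ± 0.40 (adjusted p = 3.69e-08). The difference between the tissues was tested itself: the change was larger in bone marrow than in muscle by 4.06 ± 0.57 (adjusted p = 6.41e-05) and larger than in periosteum by 3.66 ± 0.57 (adjusted p = 0.000553), on the log2 scale. These values passed under every alternative and with every library left out in turn.

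Cdkn1c (chr7:143458339-143461050), which encodes p57, was highest in periosteum P1 and nearly missing from bone marrow P2. Periosteum P1 had 1314, 1101 and 894 normalized counts, and every other library lay lower, the next being 623 in muscle P1. In bone marrow P2 it was listed at 0 in 2 libraries and at 3.20 in the other. In bone marrow P1 it was 64.0, 121 and 197, and in bone marrow P3 416, 72.1 and 91.9. The last 2 groups overlapped. P1 was higher than P2 in bone marrow by a log2 fold change of 6.17 ± 0.78 (adjusted p = 1.98e-06), while P1 and P3 differed by -0.28 (95% interval -1.89 to 1.32, adjusted p = 0.984). In P1 cells Cdkn1c was higher in periosteum than in bone marrow by 3.23 ± 0.78 (adjusted p = 0.0135), and without the first bone marrow P1 library the adjusted p was 0.0837. Within periosteum, P1 lay above P2 by 1.85 and above P3 by 1.61 on the log2 scale without passing the test (adjusted p = 0.0956 and 0.288), although no library of P1 overlapped with either. An antisense gene shares 30.7% of the exonic bases of Cdkn1c, and as the library kit does not mark strand, their reads cannot be told apart.

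Cdkn1b (chr6:134920401-134925513), which encodes p27, was highest in P2 of bone marrow and periosteum. Bone marrow P2 had 480, 812 and 547 normalized counts, against 105, 98.7 and 171 in P1 and 95.3, 101 and 84.3 in P3. The bone marrow P2 libraries lay above all of P1 and P3. P1 was lower than P2 by 2.30 ± 0.65 on the log2 scale (adjusted p = 0.00895), and P2 was higher than P3 by 2.67 ± 0.65 (adjusted p = 0.00597), which with libraries scaled to equal totals was 1.57 (adjusted p = 0.111). In periosteum P2 the libraries had 1002, 250.05 and 468 normalized counts, P1 had 373, 130 and 208, and P3 had 138, 56.2 and 135, so that P1 and P2 overlapped. P2 was higher than P3 in periosteum by 2.26 ± 0.65 (adjusted p = 0.0197), a call that was lost without the first P2 library or the second P3 library (adjusted p between 0.0740 and 0.0743). The call was also lost with equal totals (1.46, adjusted p = 0.146), with these groups fitted alone (0.296) and with library weights (0.299). In muscle its group means lay between 118 and 210 and no pair of subpopulations passed the test.

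**Figure D1:**
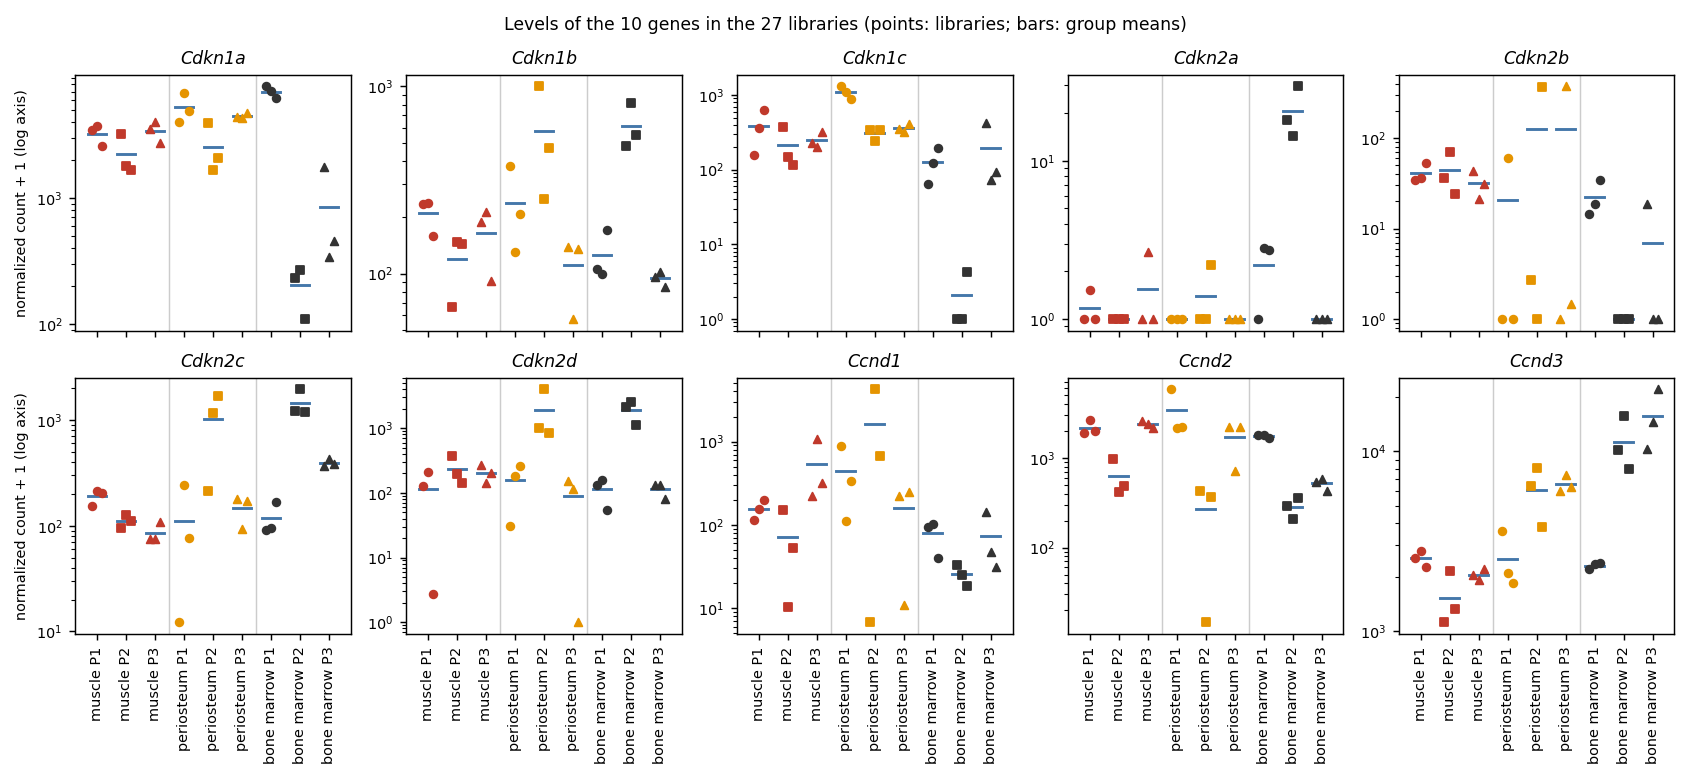
Each point is 1 of 27 libraries and each blue bar the mean of a group of 3; the vertical axis of each panel is the normalized count plus 1 on a log axis, and circles, squares and triangles are P1, P2 and P3 of muscle (red), periosteum (orange) and bone marrow (dark grey). Cdkn1a is highest in bone marrow P1 and lowest in bone marrow P2, while Cdkn2c and Cdkn2d are highest in P2 of bone marrow and periosteum and Ccnd3 in P2 and P3 of bone marrow.

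The INK4 gene Cdkn2c (chr4:109660876-109667189), which encodes p18, was highest in the groups with erythroid RNA. Its normalized counts were 1220.4, 1952 and 1178 in bone marrow P2, 366, 425 and 382 in bone marrow P3, and 89.2, 95.04 and 165 in bone marrow P1. The 3 groups did not overlap. P1 was lower than P2 by a log2 fold change of 3.65 ± 0.83 (adjusted p = 0.00165), and the difference between P1 and P3 of -1.80 did not pass (adjusted p = 0.249). It passed under 5 alternatives, with values from -1.80 with the groups fitted alone (adjusted p = 0.0179) to -2.79 with equal totals without globins (0.0234). The periosteum P2 libraries, at 214, 1164 and 1697 normalized counts, spread more widely, and the library with the lowest value also had the lowest erythroid share of that group, 24.7% against 39.7% and 32.9%. Periosteum P1 had 11.2, 243 and 74.9 and was lower than P2 by 3.63 ± 0.83 (adjusted p = 0.00322), a call that was lost with these groups fitted alone (0.339) and with library weights (0.0893). In muscle all libraries lay between 73.2 and 213. The change of P1 against the mean of P2 and P3 was -2.72 ± 0.71 in bone marrow (adjusted p = 0.00836), -2.42 ± 0.71 in periosteum (adjusted p = 0.0322) and 0.97 ± 0.71 in muscle (adjusted p = 0.837). The call in periosteum was lost without the first P1 library, where the change was -1.26, and without replicate 3 of P1, replicate 3 of P2 or the first P3 library (adjusted p between 0.0507 and 0.288). That call was also lost with the groups fitted alone (adjusted p = 0.458) and with library weights (0.181). The change in bone marrow was lower than that in muscle by 3.69 ± 1.01 (adjusted p = 0.0254), a call that was lost without the first or second bone marrow P1 library or replicate 2 or 3 of muscle P1 (adjusted p between 0.0627 and 0.0737).

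Cdkn2d (chr9:21288410-21291407), the INK4 gene that encodes p19 of that family, was the most abundant inhibitor of bone marrow P2 per kilobase. Bone marrow P2 had 2109, 2528 and 1129 normalized counts and periosteum P2 999, 3995 and 831, while no other library exceeded 371. P2 was higher than P3 in periosteum by a log2 fold change of 5.84 ± 1.48 (adjusted p = 0.00877). That P3 group held 152, 114 and 0 normalized counts, and without the library at 0 the adjusted p was 0.0608. The call was also lost with these groups fitted alone (adjusted p = 0.376) and with library weights (0.231). In bone marrow P1 was lower than P2 by 4.11 ± 1.48 (adjusted p = 0.0337), and leaving out any 1 of the 6 libraries of the pair raised the adjusted p to between 0.0565 and 0.109. The difference of P2 from P3 in bone marrow was 4.04 (adjusted p = 0.0539, and between 0.00218 and 0.0358 in the 5 alternatives under which it passed) and that of P1 from P2 in periosteum -3.73 (adjusted p = 0.0776), and the groups did not overlap in either. The wide spread of this gene across all groups, with single libraries at 1.70 in muscle P1 and at 0 in periosteum P3, enters the error of each of these values.

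Cdkn2a and Cdkn2b, which lie side by side on chromosome 4 and are known for their rise in senescent cells, were near the lower end of the table. Cdkn2a (chr4:89274471-89294653) was listed at 0 in 19 of the 27 libraries and reached 10 only in bone marrow P2, with 17.1, 13.4 and 28.6 normalized counts. The highest value elsewhere was 1.82, in bone marrow P1. It passed the filter on low values only through that group, so its calls are no independent result. The locus gives p16 and, from a second start site, p19Arf, which a gene-level table does not separate. Cdkn2b (chr4:89306299-89311039), which encodes p15 and is a target of TGF-beta, was listed at 0 in all 3 libraries of bone marrow P2 and had 20.4 to 70.0 in the 9 muscle libraries. In periosteum single libraries stood far above the rest, with 370 in replicate 3 of P2 and 374 in the second P3 library, while 4 of the other 7 were at 0. The muscle libraries thus all lay above those of bone marrow P2 but overlapped with those of bone marrow P1, at 13.4 to 33.7. Over the 3 subpopulations muscle was higher than bone marrow by a log2 fold change of 3.26 ± 1.15 (adjusted p = 0.0368), a call that was lost in 14 of the 27 fits with 1 library left out (adjusted p between 0.0516 and 0.0752). The call was also lost with no filter (adjusted p = 0.0593), with a pseudocount of 5 (0.0619) and without P2 (2.24, adjusted p = 0.304).

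Among the D-type cyclins, Ccnd3 (chr17:47505051-47599691) was the highest over all libraries, with a mean of 641.5 per kilobase against 154.6 for Ccnd2 and 75.3 for Ccnd1, although Ccnd2 lay above it in periosteum P1 and muscle P3. Its normalized counts were 10353, 14594 and 22179 in bone marrow P3, 10141, 15766 and 8030 in bone marrow P2, and 2206, 2347 and 2377 in bone marrow P1. P2 and P3 overlapped and P1 lay below both. P1 was lower than P2 by a log2 fold change of 2.23 ± 0.32 (adjusted p = 1.29e-05) and lower than P3 by 2.70 ± 0.32 (adjusted p = 5.67e-06). In periosteum P1 had 3593, 2106 and 1857 normalized counts, P2 had 6454, 8047 and 3776, and P3 had 6046, 7371 and 6366. This order appeared there without overlap of P1 with P2 or P3, but the log2 fold changes of -1.27 and -1.44 stayed within the limit of 1.5 (adjusted p = 0.00766 and 0.00904). In muscle all 9 libraries lay between 1120 and 2794 and P1 was not the lowest.

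The change of Ccnd3 in P1 against the mean of P2 and P3 thus ran from 0.54 ± 0.28 in muscle (adjusted p = 0.579) to -1.36 ± 0.28 in periosteum (adjusted p = 0.00248) and -2.47 ± 0.28 in bone marrow (adjusted p = 7.09e-07) on the log2 scale. The difference from muscle was -1.89 ± 0.40 for periosteum (adjusted p = 0.00882) and -3.00 ± 0.40 for bone marrow (adjusted p = 2.66e-05). The call for periosteum was lost with eBayes without the trend (adjusted p = 0.0830). P1 cells of the 3 tissues had similar Ccnd3 levels, with a mean (± SD, n = 3) of 2537 ± 262 for muscle, 2519 ± 938 for periosteum and 2310 ± 91.2 for bone marrow. The difference of muscle P1 from bone marrow P1 was 0.13 (95% interval -0.54 to 0.80, adjusted p = 0.964). The tissues differed in P3, where muscle was lower than periosteum by 1.68 ± 0.32 (adjusted p = 0.00367) and lower than bone marrow by 2.86 ± 0.32 (adjusted p = 1.26e-06). The erythroid share was 3.31% to 4.84% in bone marrow P3 and 45.6% to 48.9% in bone marrow P2, where the range of Ccnd3 overlapped with that of P3. A gene on the opposite strand, Bysl, shares 4.11% of the exonic bases of Ccnd3.

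**Figure D2:**
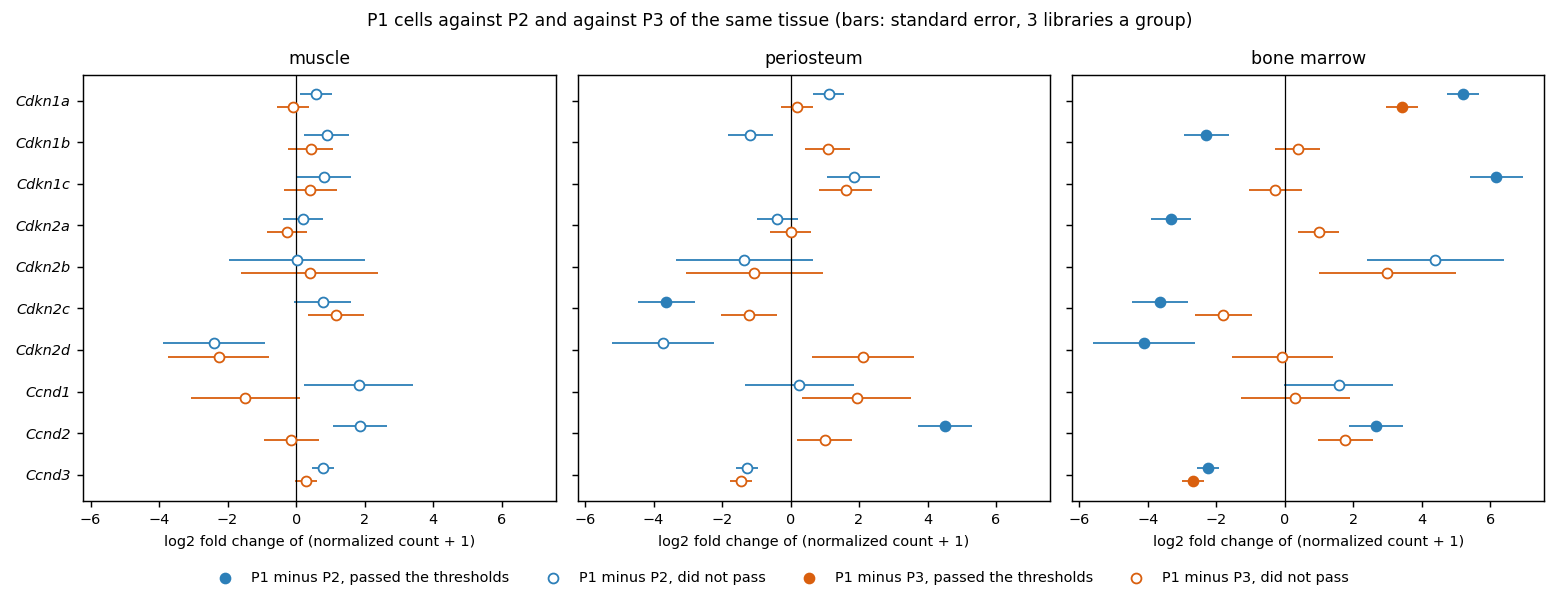
Each row is a gene and each panel a tissue, and the horizontal axis is the log2 fold change of P1 against P2 (blue) or against P3 (orange) with its standard error, from 3 libraries a group; filled points passed both thresholds. In muscle no point is filled, and in bone marrow 8 of the 10 genes passed against P2, among them Cdkn2a, which passed the filter on low values only through P2, and 2 (Cdkn1a and Ccnd3) against P3.

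Ccnd2 (chr6:127125162-127152193) had P1 libraries above all P2 libraries in each tissue, which in bone marrow and periosteum was the opposite of Ccnd3. Its normalized counts were 1794, 1798 and 1668 in bone marrow P1, 287, 206 and 359 in P2, and 544, 587 and 429 in P3. The bone marrow P1 libraries lay close to each other and above all of P2 and P3. P1 was higher than P2 by a log2 fold change of 2.66 ± 0.80 (adjusted p = 0.0125; 1.94 and 0.0779 with equal totals without globins), and the difference of 1.76 from P3 did not pass (adjusted p = 0.240), except with the groups fitted alone (0.00545) and with library weights (5.22e-05). In periosteum P1 had 5821, 2167 and 2194, P3 had 2228, 719.9 and 2192, and P2 had 430.0, 13.7 and 369. P1 and P3 overlapped, and P2 lay below both. P1 was higher than P2 in periosteum by 4.51 ± 0.80 (adjusted p = 0.000288), and P2 was lower than P3 by 3.52 ± 0.80 (adjusted p = 0.00391). Both calls were lost with these groups fitted alone (adjusted p = 0.270 and 0.425). In muscle P1 had 1885, 2617 and 1973, P3 had 2573, 2393 and 2138, and P2 had 983, 417 and 488. No muscle P2 library reached P1 or P3, but the log2 difference of 1.87 between P1 and P2 did not pass (adjusted p = 0.171), where 1 spread is estimated over all groups. It passed with quantile normalization (0.0173), with the groups fitted alone (0.0269) and with library weights (0.00101). Without the second periosteum P2 library, at 13.7, the adjusted p of that difference was 0.00665.

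Ccnd1 (chr7:144929931-144939925), a target of growth factor and Wnt signals, varied widely between the libraries of some groups. In periosteum P2 its normalized counts were 5.81, 4243 and 679, and in muscle P3 they were 224, 1085 and 322. In bone marrow all 9 libraries lay between 17.3 and 140. No comparison passed the test for Ccnd1, except under alternatives. The largest log2 differences were 3.45 ± 1.58 for periosteum over bone marrow in P2 (adjusted p = 0.126) and -3.31 ± 1.58 for P2 against P3 in muscle (adjusted p = 0.205). The former passed with quantile normalization (5.51, adjusted p = 0.00901) and the latter with library weights (-3.17, adjusted p = 0.0102). Without the first periosteum P2 library, at 5.81, the first of these was 6.10 with an adjusted p of 0.00121. A gene on the opposite strand, LTO1, shares 23.4% of the exonic bases of Ccnd1, and reads of the pair cannot be told apart.

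Per kilobase of exon, both the mix of D-type cyclins and their sum differed between the groups. Ccnd3 made up 97.0% ± 1.45 (SD, n = 3) of the summed D-type cyclin level in bone marrow P2 and 95.6% ± 2.46 in bone marrow P3, but 56.5% ± 2.55 in bone marrow P1. In P1 of muscle and periosteum its share was 52.5% ± 3.32 and 41.1% ± 7.49, and Ccnd2 took 41.4% ± 2.64 and 47.6% ± 2.88. P1 cells of all tissues thus held Ccnd2 and Ccnd3 at comparable levels per kilobase, with Ccnd1 at 3.56% to 11.3% in the group means. The summed level per kilobase was 466 ± 12.5 in bone marrow P1, 1325 ± 448 in P2 and 1861 ± 665 in P3. In muscle the sums were 552 ± 67.7, 257 ± 39.6 and 601 ± 89.3 in the same order.

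The inhibitors changed places as well. Cdkn1a was 89.7% ± 2.49 of the summed inhibitor level per kilobase in bone marrow P1, 36.5% ± 14.3 in P3 and 2.83% ± 0.511 in P2. In bone marrow P2 Cdkn2d took 61.1% ± 6.96 and Cdkn2c 27.9% ± 4.98. The summed level was nevertheless close in P1 and P2 of bone marrow, at 2195 ± 170 and 1970.0 ± 633, with ranges that overlapped, and lower in P3 at 577 ± 327. In muscle Cdkn1a held 64.1% to 73.4% in the means of all subpopulations. Cdkn1c had its largest share in periosteum P1, 25.1% ± 7.99. These shares are descriptions and were not tested.

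**Figure D3:**
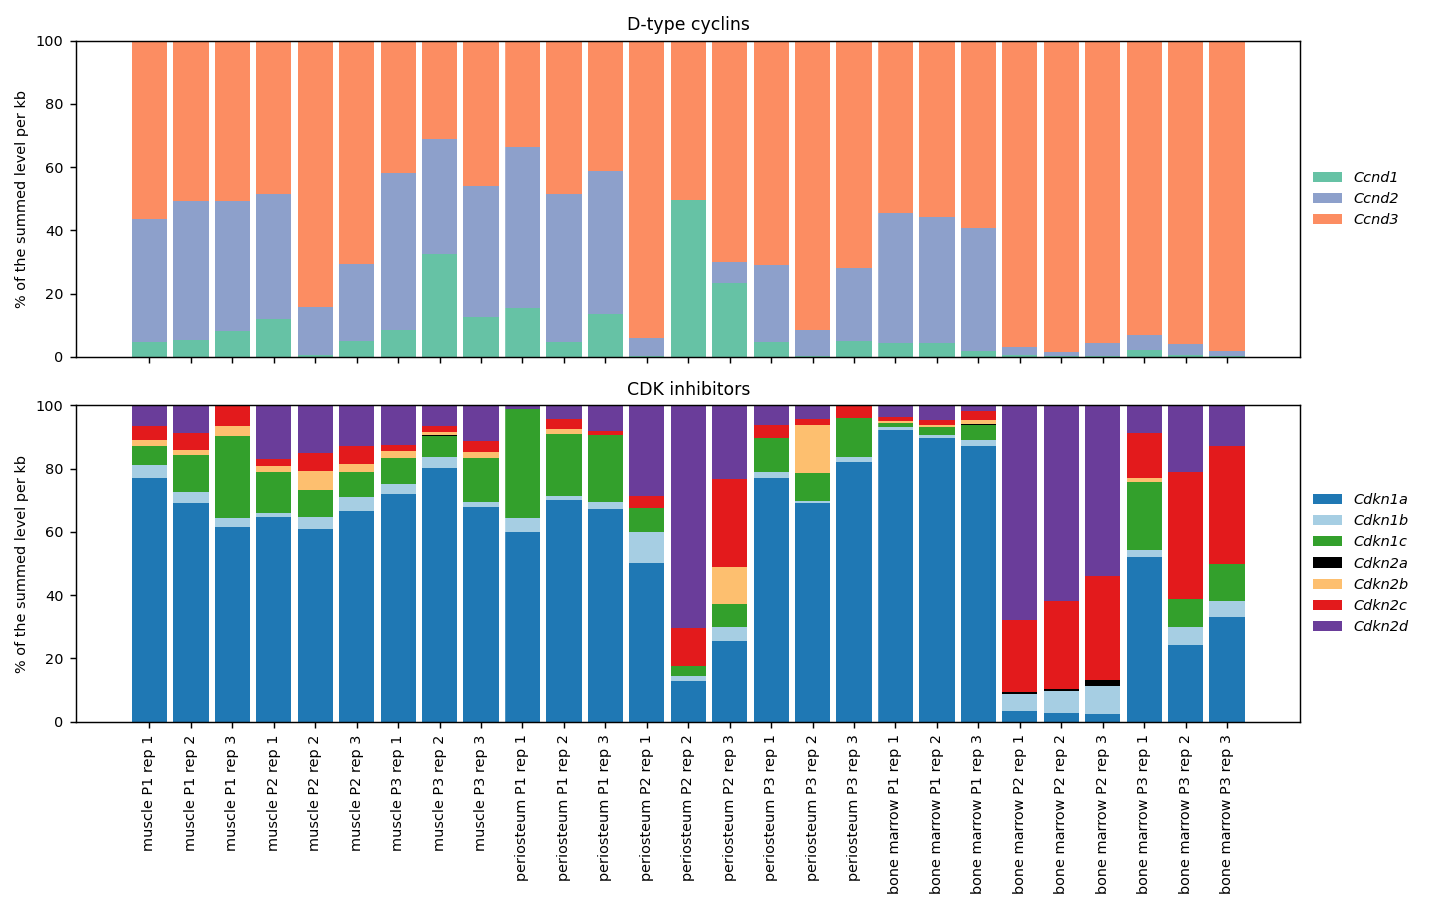
Each bar is 1 library, and the vertical axis is the share in % of the summed level per kilobase of exon, for the 3 D-type cyclins (top) and the 7 CDK inhibitors (bottom). Ccnd3 fills the bars of bone marrow P2 and P3 at 93.1% or more, and in the bars below Cdkn1a gives way to Cdkn2d and Cdkn2c in bone marrow P2.

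Counted over the 10 genes, the contrasts of bone marrow P2 with bone marrow P1 and with muscle P2 held the most calls, and these were also the contrasts with the most calls over all genes. A call needed an adjusted p below 0.05 and a log2 fold change beyond 1.5. Between P1 and P2 of bone marrow 8 of the 10 genes passed, 3 higher and 5 lower in P1, where 34.0% of the 18442 genes tested did, 10.4% higher and 23.7% lower. The 5 lower ones include Cdkn2a, which was tested only because it is high in bone marrow P2, so that its call here and in the other contrasts with that group supports nothing. Between P1 and P3 of bone marrow 2 passed, with 6.60% of all genes, and between P2 and P3 4 passed, with 20.0% of all genes. In periosteum 2 passed between P1 and P2 (19.1% of all genes), 0 between P1 and P3 (4.18%) and 4 between P2 and P3 (17.1%), and 2 genes had an unadjusted p under 0.05 in the contrast with 0. In muscle 0 of 10 passed in limma for P1 against P2 (8.21% of all genes), P1 against P3 (0.466%) and P2 against P3 (11.2%), with 2, 0 and 2 genes at an unadjusted p under 0.05. For P1 against the mean of P2 and P3 the counts of the 10 genes were 3 over all tissues (14.5% of all genes), 0 for muscle (1.05%), 2 for periosteum (9.16%) and 5 for bone marrow (18.9%), with 0 genes of the muscle contrast at an unadjusted p under 0.05. The 3 genes of the contrast over all tissues were Cdkn1a (log2 fold change 1.74 ± 0.23), Cdkn1c (1.76 ± 0.39) and Ccnd2 (1.94 ± 0.40), each higher in P1, as were 6.88% of all genes, and none passed when the P2 libraries were left out. Their values were then 1.18 (adjusted p = 0.00453), 0.58 (0.372) and 0.87 (0.0254), so that Cdkn1a and Ccnd2 missed only the limit of 1.5. The change of P1 differed between periosteum and muscle for 1 of the 10 genes (Ccnd3, 2.44% of all genes), between bone marrow and muscle for 3 (Cdkn1a, Cdkn2c and Ccnd3, 7.41%) and between bone marrow and periosteum for 1 (Cdkn1a, 2.80%).

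Between tissues, the calls over the 3 subpopulations fell in the contrasts with bone marrow, and most of them were lost without P2. Over the 3 subpopulations, 0 passed between muscle and periosteum (20.4% of all genes), with 3 at an unadjusted p under 0.05, 6 between muscle and bone marrow (21.7%) and 3 between periosteum and bone marrow (20.8%), with Cdkn2a among both. The count between periosteum and bone marrow, once Cdkn2a is set aside, was close to the share of all genes. Without the P2 libraries, a choice made after the data were seen, the counts of the 3 tissue contrasts were 0, 0 and 1. The gene left was Cdkn1c, which was higher in periosteum than in bone marrow by 4.04 ± 0.45 with all subpopulations in the fit (adjusted p = 3.97e-07) and by 2.29 without P2 (adjusted p = 0.00332). Ccnd3 was lower in muscle than in bone marrow by 1.87 ± 0.19 (adjusted p = 3.60e-08) and lower than in periosteum by 1.20 ± 0.19 (adjusted p = 5.63e-05), the latter within the limit of 1.5. Among P1 cells 0 passed between muscle and periosteum (4.90% of all genes), 0 between muscle and bone marrow (8.34%) and 1, Cdkn1c, between periosteum and bone marrow (4.87%), and 1 gene had an unadjusted p under 0.05 in each. Among P3 cells the counts were 1 (Ccnd3, 3.50% of all genes), 2 (Cdkn1a and Ccnd3, 10.4%) and 1 (Cdkn1a, 6.94%) in the same order, and among P2 cells 4 (28.0%), 7 (40.1%) and 3 (20.0%). Over all genes the median log2 fold change lay at 0.56 between muscle and periosteum and at -0.69 between periosteum and bone marrow, so that fold changes between tissues are read against these shifts.

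The partners of the 10 genes in the cell cycle were described with 3 further lists. Of 25 genes of the G1 machinery (CDKs, cyclin E, retinoblastoma and E2F families), 13 were lower and 0 higher in P1 of bone marrow against the mean of P2 and P3, 12 lower and 0 higher in periosteum, and 0 passed in muscle, where 18.9%, 9.16% and 1.05% of all genes passed. E2f2, an activating E2F, averaged 258 ± 255 normalized counts in bone marrow P1, 11585 ± 4445 in P2 and 1324 ± 306 in P3. Cdk4, the kinase that the D-type cyclins bind, stood apart from it with 3267 ± 86.5, 692 ± 289 and 7979 ± 3035 in the same order. Of 18 proliferation genes, 18 were lower in P1 of bone marrow (18.9% of all genes passed in either direction), 15 in periosteum (9.16%) and 0 in muscle (1.05%). In muscle P1 against P2 alone, 4 of these 18 were lower and 1 higher, as were 3 and 1 of the 25 G1 genes (8.21% of all genes passed). In muscle P1 against P3 alone, 0 of either list passed (0.466%). Mki67, which marks cycling cells, had means of 407 ± 256, 22669 ± 5662 and 4718 ± 1246 in P1, P2 and P3 of bone marrow, 200 ± 121, 10842 ± 3191 and 1646 ± 505 in periosteum and 57.0 ± 41.7, 401 ± 142 and 71.6 ± 2.92 in muscle. The groups with the most Cdkn2c and Cdkn2d, which were P2 of bone marrow and periosteum, were thus also those with the most Mki67 and erythroid RNA, whereas Ccnd3 was highest in bone marrow P3. The part of each in the others was not tested.

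Of 16 other targets of p53, 1 was higher and 2 were lower in P1 of bone marrow, a share close to the 18.9% of all genes that passed in this contrast. Mdm2, the ubiquitin ligase that p53 induces against itself, averaged 732 ± 194 in bone marrow P1, 1036 ± 272 in P2 and 821 ± 54.1 in P3. Phlda3 was the gene that was higher, with 406 ± 81.0 against 30.1 ± 35.2 in P2 and 164 ± 87.2 in P3. Btg2 and Gadd45a, which both slow the cell cycle, were lower, with 1117 ± 87.7 and 370 ± 270 in P1 against 9946 ± 3891 and 3455 ± 1466 in P2. In P3 they were 1936 ± 465 and 687 ± 91.8. Between P1 and P3 of bone marrow 0 of the 16 passed (6.60% of all genes). The median log2 fold change of the list was -0.42 and that of all genes -0.39. In muscle 1 of the 16, Ccng1, was lower in P1 and 0 were higher, and in periosteum Btg2 was lower and 0 were higher.

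**Figure D4:**
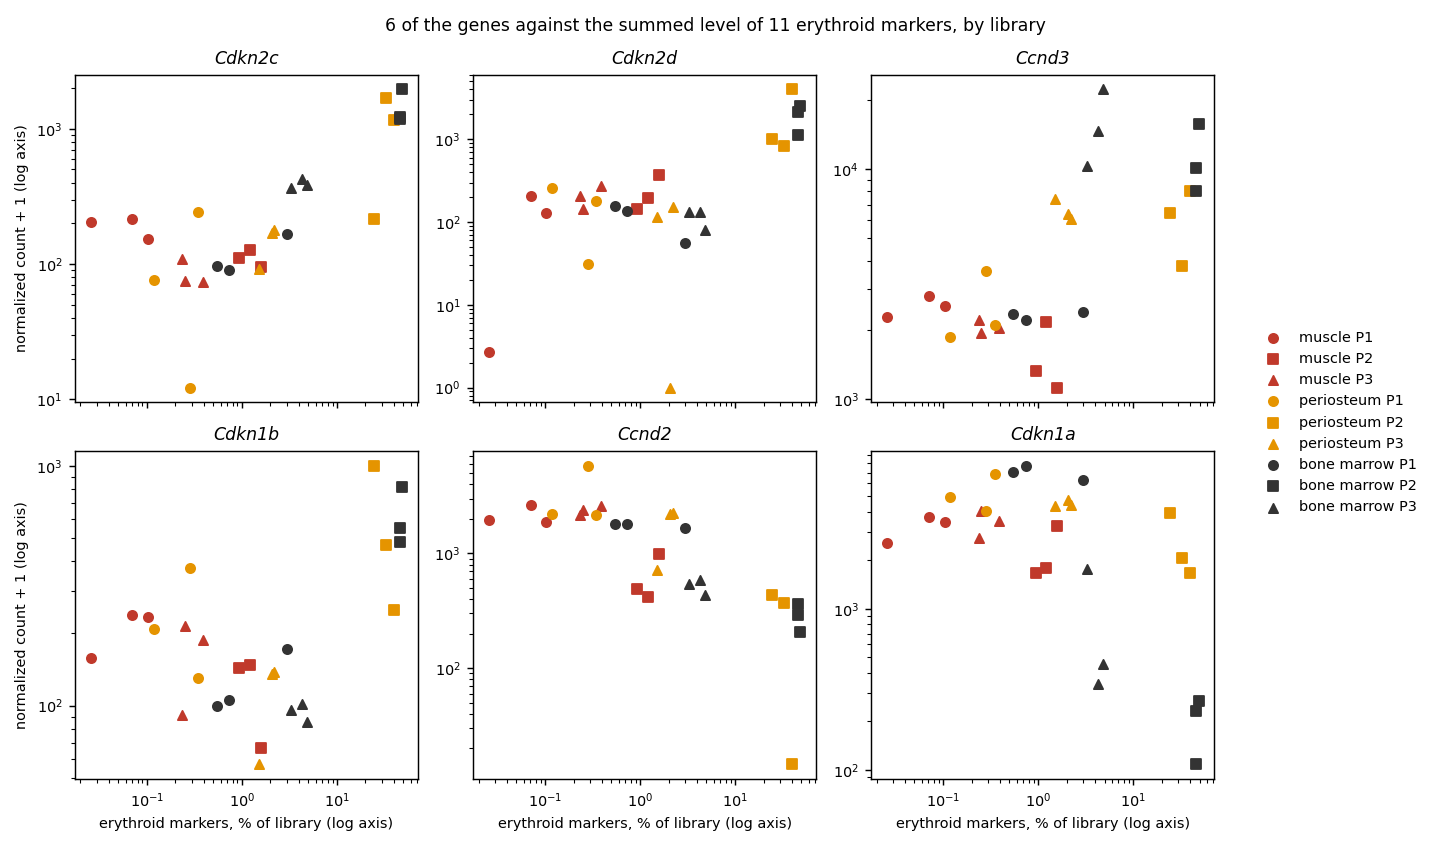
Each point is 1 of 27 libraries; the horizontal axis is the summed level of 11 erythroid markers in % of the library and the vertical axis the normalized count plus 1, both on log axes, with colours for tissues and shapes for subpopulations. The libraries of bone marrow P2 and periosteum P2, at 24.7% or more, stand to the right with the highest Cdkn2d, with the highest Cdkn2c except for 1 periosteum P2 library at 214, and with little Ccnd2, whereas Ccnd3 is as high in bone marrow P3 at 3.31% to 4.84%.

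The genes whose log2 values ran most like those of each member over the 27 libraries were named by their Pearson r, as a description, since the libraries fall into 9 groups that share tissue, gate and RNA content. For Cdkn1a they were Selm (r = 0.95), Col5a1 (0.95) and Rhoc (0.95), and for Cdkn1c Prkcdbp (0.93), Col6a2 (0.93) and Col6a1 (0.93), several of which are collagen genes of connective tissue. For Cdkn2c they were Slc16a1 (0.96), Tfrc (0.93), the transferrin receptor that red cell precursors carry in bulk, and Fam117a (0.92). For Ccnd3 they were Actl6a (0.93), Stmn1 (0.93) and Tmem14c (0.92), and for Ccnd2 Fam92a (0.92), Txndc12 (0.91) and Kifap3 (0.91). The closest genes of Cdkn1b (Gm14740, 0.82), Cdkn2b (Cuedc2, 0.78), Cdkn2d (Ccdc108, 0.75) and Ccnd1 (Galr2, 0.81) were less alike. For Cdkn2a, with values above 0 in 8 libraries, the list (Gm11833, Serpinb9g and Trav12d-3) rests on bone marrow P2. By rank, the 3 genes named for Cdkn1c had lower correlations with it (Spearman rho 0.729, 0.688 and 0.697) than by Pearson r.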

How the data were processed

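RNA-seq libraries (SMART-Seq v4 and Nextera XT, which do not mark strand) of 9 groups with 3 replicates each were used. The authors trimmed reads with Trim Galore, aligned them with STAR and normalized with DESeq2. The deposited table holds a signal value for each gene, a normalized count that is no longer a whole read, so count models and counting intervals were not used and depth is unknown. Libraries summed to between 8.63M and 26.2M normalized counts and held 12396 to 21675 genes above 0. The genome build and the counting tool are not given in the sources used here. Positions and exon lengths came from GENCODE M21 (GRCm38), where 29732 of 30153 identifiers matched, and promoters from RefSeq (GRCm38.p6).

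The 18442 genes that reached 10 in 3 or more libraries were tested. limma 3.58.1 (R 4.3.3) fitted 1 mean to each group on the log2(normalized count + 1) scale, using eBayes with a trend, with Benjamini-Hochberg adjustment over those genes in each of 28 comparisons. Fold changes on this scale understate those of low genes. All 10 members passed the filter, Cdkn2a through 1 group. The thresholds were an adjusted p below 0.05 and a log2 fold change beyond 1.5. Levels were compared between genes per kilobase of exon. The members and lists were chosen with earlier results of these data known. The text names all members, the closest genes of each by Pearson r, the highest genes of each list with Mki67 and genes that passed, and the sorting genes and markers.

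Other pseudocounts (0.1 or 5), other filters (none, or a mean of 50), eBayes without the trend, a block for the replicate number, equal totals with and without globins, quantile normalization, fits of the compared groups alone, library weights, the adjusted p alone and leaving out each library were tried as alternatives. Leaving out P2 was chosen after seeing the data. On simulated data in which 200 of 18442 genes differed between muscle and periosteum by 3 on the log2 scale, 136 were recovered, 136 in the right direction, and 11 others were called. Python 3.11.15 with numpy 2.4.6, pandas 2.3.3 and matplotlib 3.10.9 made the tables and figures.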

Additional observations from a re-analysis of the deposited data

Results flagged for a closer look

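In 5 results the change of P1 against the mean of P2 and P3 differed between tissues by the test of the difference itself (limma, all p-values adjusted over 18442 genes). Cdkn1a changed more in bone marrow than in muscle by 4.06 (higher in P1 than in every P2 and P3 library of bone marrow, with 3 P1 libraries) and more than in periosteum by 3.66 on the log2 scale. Such a difference passed for 7.41% and 2.80% of all genes. Cdkn2c changed by -3.69 in bone marrow relative to muscle. Ccnd3 changed by -1.89 in periosteum (2.44% of all genes passed) and by -3.00 in bone marrow relative to muscle. Its call for periosteum was lost with eBayes without the trend (adjusted p = 0.0830). Without the P2 libraries the result for Cdkn2c did not pass (-2.95, adjusted p = 0.184), and those for Cdkn1a and Ccnd3 did. All 5 contrasts share libraries.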

How the results depend on the processing

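Of 63 single results that passed the thresholds, 32 passed under every alternative other than the one without P2 and with every library left out in turn, and 46 with every library left out. Leaving out P2 gives values only for contrasts that can do without it, so its losses are no share of the 63 calls. There it ended 15 calls with the sign kept. It also ended that of Cdkn1c for P1 in bone marrow, with the sign turned (-0.28, adjusted p = 0.920). Fitting the compared groups alone ended 13 of the 63 calls. Other losses came with library weights (9), equal totals (8), equal totals without globins (7) and quantile normalization (8). Counts of the 10 genes that moved by over 1.5 times were as follows. With the adjusted p alone, 1 gene in place of 0 passed between muscle and periosteum and 5 in place of 3 for P1 over all tissues. With the groups alone or library weights, 1 in place of 2 passed for P1 in periosteum and 5 in place of 3 for the difference of bone marrow from muscle. The difference of periosteum from muscle gave 0 without the trend and 2 with equal totals, with or without globins, in place of 1, and that of bone marrow from periosteum gave 2 in place of 1 with both equal totals. Without the P2 libraries 0 in place of 6 passed between muscle and bone marrow, 1 in place of 3 between periosteum and bone marrow, 0 in place of 3 for P1 over all tissues, 0 in place of 2 for P1 in periosteum and 3 in place of 5 in bone marrow, with fewer samples in the fit. Some of these lost calls missed only the limit of 1.5 and kept an adjusted p below 0.05.

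With each library left out the counts ran from 0 to 1 between muscle and periosteum, 3 to 6 between muscle and bone marrow (3 without the third bone marrow P2 library), 3 to 4 between periosteum and bone marrow, 3 to 4 for P1 over all tissues, 1 to 2 for P1 in periosteum, 4 to 5 in bone marrow, 1 to 2 for the difference of periosteum from muscle and 2 to 3 for that of bone marrow from muscle. Signs turned for Cdkn1c in bone marrow, where the change of P1 was -0.28 without P2, and for its difference of P1 from P3, which was 0.056 with library weights and ran from -0.76 to 0.50 with each library left out (0.14 and 0.50 without the first P1 or the first P3 library), and for the change of Cdkn1a in muscle P1, which was -0.078 without P2. The causes were not tested.

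With the replicate number as a block the counts were 0, 6, 3, 3, 0, 2, 5, 1, 3 and 1 in the order tissues, P1 and differences, as without it, and 1 printed result gained a call, as it did under 4 other alternatives, Cdkn2d between P2 and P3 of bone marrow (4.04, adjusted p = 0.0342). Libraries that share a number deviated from their group means with a mean r of 0.000242 over 36 group pairs (-0.0592 to 0.0502). No shared deviation was visible in this, which cannot show whether libraries of the same number came from the same animal. Low values limit Cdkn2a and Cdkn2b most.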
